A study of Homo sapiens with 12 samples.

Results

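ATF4 and 9 further genes of the integrated stress response were followed across 12 RNA-seq libraries of THP-1 cells, a widely used line from a human monocytic leukaemia. The 10 genes (ATF4, ATF5, DDIT3, TRIB3, CHAC1, SESN2, ASNS, PPP1R15A, STC2 and EIF2AK3) were taken by symbol from the 57500 gene identifiers of the count tables. All 10 were found and all 10 passed the filter on low counts, which left 16402 genes. The genes were chosen by measured expression values of these same libraries, with no record of which comparison was used. The tests below therefore describe these genes and are no independent evidence that they respond.

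All 4 groups were THP-1 cells that carried a lentiviral non-target shRNA and were held in buffered DMEM with serum in a gas chamber. The groups were 10% CO2 with LPS, 5% CO2 with LPS, 10% CO2 without LPS and 5% CO2 without LPS, with 3 libraries each. Cells spent 4 h at their CO2 level, and LPS, a bacterial lipopolysaccharide that activates TLR4, was present at 2.5 µg/ml for the last 2 h. The study asked what a raised CO2 level in buffered medium, called hypercapnia, does to monocyte transcription at rest and under an inflammatory stimulus. A single transduced leukaemia line stood for monocytes in every group, and no untransduced cells were analysed here. The values are averages over the cells of a dish, so a change in the share of responding cells and a change in RNA per cell cannot be told apart.

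The integrated stress response is set off when kinases such as PERK, encoded by EIF2AK3, phosphorylate the translation initiation factor eIF2. General protein synthesis then slows while the ATF4 mRNA is translated more efficiently, and the ATF4 protein, a bZIP transcription factor, activates genes of amino acid supply, redox balance and cell fate. The phosphatase subunit GADD34, encoded by PPP1R15A, closes the loop by directing protein phosphatase 1 to eIF2. Because ATF4 is controlled largely at translation, its mRNA level does not report the amount of its protein, which was not measured here.

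Short promoter stretches from RefSeq are shown because ATF4 is known to act through the C/EBP-ATF response element and related factors through the cAMP response element. The 250 bases before each RefSeq transcription start (build GRCh38.p14) were searched on both strands for 6 motifs, and all 10 genes had at least 1 such window. The 10 genes had 17 windows between them, and a gene was counted if any of its windows held the motif. The shares of all windows given below are per single window, so counts of genes and these shares are not on the same footing. Of the 10 genes, CHAC1 and ASNS held TGATGNAA, the C/EBP-ATF response element, which 3.14% of 35116 promoter windows held. PPP1R15A held TGACGTCA, the cAMP response element, which 1.65% of windows held. Each line below runs 5′ to 3′ along the gene's strand, with the match in capitals.
ASNS: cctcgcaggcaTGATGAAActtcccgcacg
CHAC1: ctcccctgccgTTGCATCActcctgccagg
PPP1R15A: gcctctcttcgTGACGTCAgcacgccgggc

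The ASNS stretch was chr7:97872458-97872487 on the minus strand, with the match 68 to 61 bases before the start. The CHAC1 stretch was chr15:40953251-40953280 on the plus strand, with the match read from the opposite strand 209 to 202 bases before the start. The PPP1R15A stretch was chr19:48872352-48872381 on the plus strand, with the palindromic match 58 to 51 bases before the start. The matches of ASNS and CHAC1 lay inside the span of these genes in the count tables, where the genes begin further upstream than the RefSeq starts used. TGACGCAA, a variant of the cAMP response element, was found in 0 of the 10 genes and 0.478% of all windows. For NF-kappaB only a single fixed sequence with no variable positions was searched, and it was in 0 of the 10 and 0.179% of all. Other forms of the NF-kappaB site were not searched for, so their presence in these windows was not tested. The full ER stress response element was in 0 of the 10 and 0.074% of all, and its CCACG end alone was in 6 of the 10 and 33.5% of all windows. A match is a stretch of letters and no measured binding.

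Library totals ran from 17132910 to 22151327 counts. All 13 monocyte and myeloid markers averaged over 1 CPM (counts scaled to a common library size) in every group, with sums of 2638 to 3843 CPM per library, and ELANE was the highest of them. The lowest group means among them were those of CD68 (1.5 to 1.77 CPM), MPO (3.6 to 4.5 CPM) and CD14 (6.66 to 10.9 CPM). Sums for T-cell, epithelial, erythroid and fibroblast markers stayed at or below 4.16 CPM in every library. B-cell markers summed to 14.4 to 22.9 CPM, mostly from PAX5, while MS4A1 averaged at most 0.0598 CPM. The mitochondrial share of counts was 2.01% to 4.15% in the 6 libraries at 10% CO2 and 1.28% to 1.96% in the 6 at 5% CO2. With mitochondrial genes left out, the count of the 10 genes called stayed at 1 for CO2 without LPS and at 3 for CO2 with LPS.

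ATF4 was the most abundant of the 10 transcripts in every group when counts were scaled by exon length (TPM, a share of all transcripts). It averaged 1072 ± 91.0 TPM at 10% CO2 with LPS, 1153 ± 42.5 TPM at 5% CO2 with LPS, 965 ± 49.5 TPM at 10% CO2 and 994 ± 36.9 TPM at 5% CO2 (SD, n = 3 each). EIF2AK3 was the lowest, at 6.65 ± 0.522, 6.59 ± 0.604, 7.21 ± 0.847 and 8.20 ± 0.699 TPM in the same groups. Without LPS the order below ATF4 was TRIB3, ATF5 and DDIT3, each clear of its neighbours in every library. Then came SESN2, ASNS and CHAC1 at 5% CO2 and ASNS, SESN2 and CHAC1 at 10% CO2, where libraries of neighbouring genes overlapped. PPP1R15A was 8th of the 10 without LPS and second with LPS. STC2 stood 9th in all 4 groups, and its libraries overlapped those of EIF2AK3 only at 5% CO2 without LPS.

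**Figure D1:**
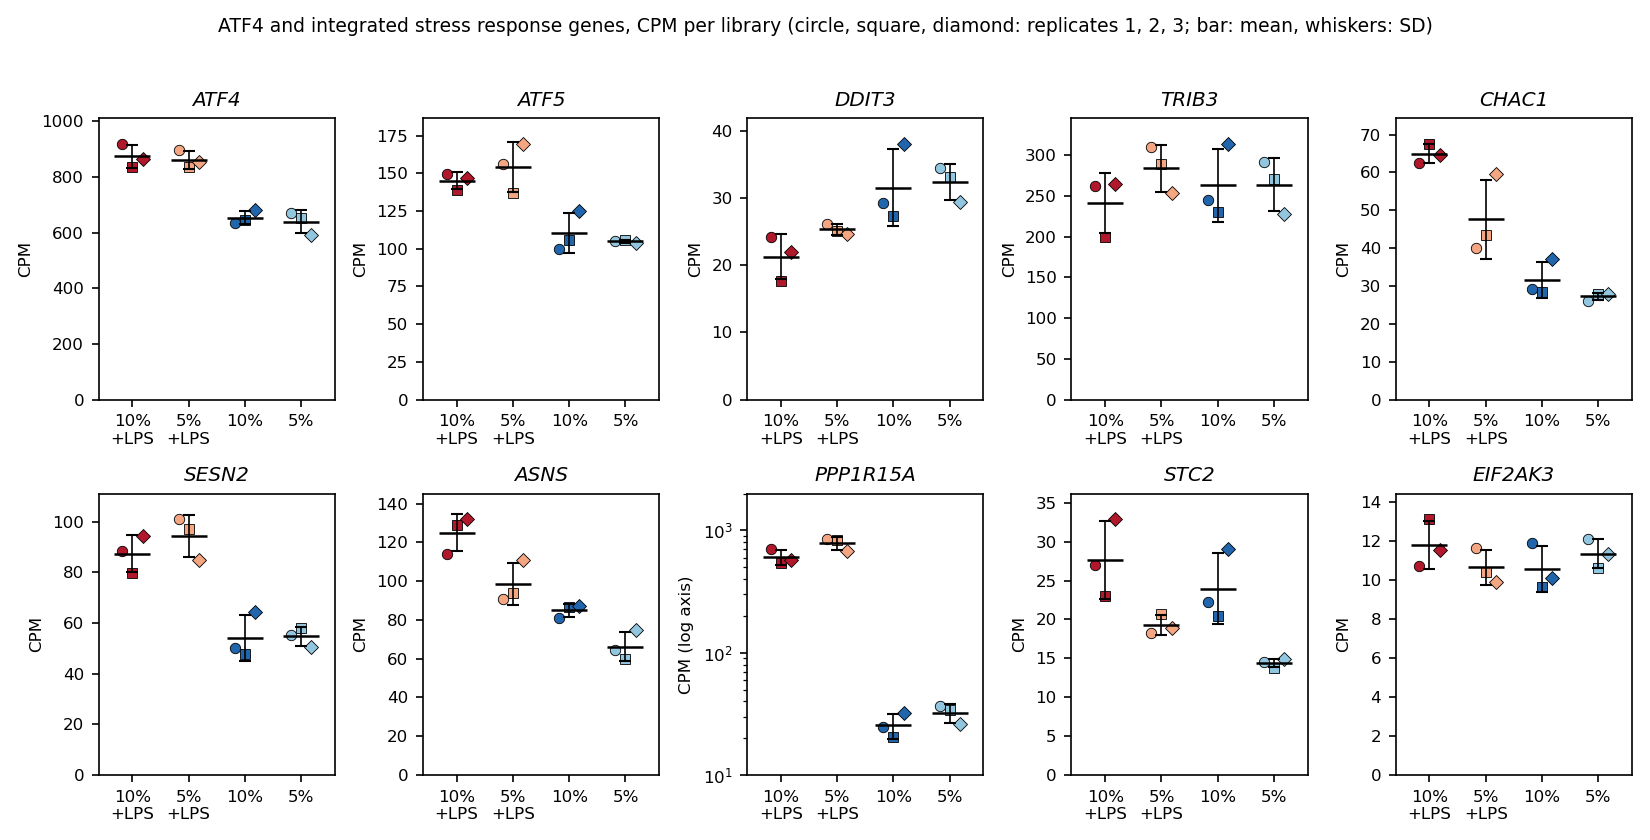
CPM of each of the 10 genes in every library, by group (10% CO2 with LPS, 5% CO2 with LPS, 10% CO2, 5% CO2), with the mean as a bar and the SD as whiskers (n = 3). The axis starts at 0 except for PPP1R15A, which is on a log axis, where LPS libraries sit between 544 and 856 CPM and all others at or below 36.5 CPM.

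On the scale of TMM-normalized counts, LPS was followed by higher levels of most of the 10 genes at both CO2 levels, with PPP1R15A, the eIF2 phosphatase subunit, far ahead of the rest. At 5% CO2, 7 of the 10 rose and 0 fell, where 24.9% of all genes tested were called (11.8% higher and 13.1% lower). At 10% CO2, 6 rose and DDIT3 fell, where the called share of all genes was 35.2% (16.6% in the higher and 18.6% in the lower direction). ATF4, ATF5, CHAC1, SESN2, ASNS and PPP1R15A rose in both comparisons, which share no library. Both come from the same model fitted to all 12 libraries, so their tests are not independent of each other. A gene is called where edgeR's quasi-likelihood test gave p under 0.05 after Benjamini-Hochberg adjustment across the 16402 genes. At 5% CO2, 1 gene had a lower level at an unadjusted p under 0.05, and DESeq2 called 0 lower. The median log2 change of the 10 was 0.41 at 10% CO2 and 0.49 at 5% CO2, against −0.02 and −0.01 over all genes.

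These values rest on TMM, which scales libraries so that most genes centre near no change, and other scalings shift them. With LPS the median log2 change of all genes was −0.24 at 10% CO2 and −0.19 at 5% CO2 when counts were divided by library totals only, and −0.29 and −0.23 in TPM. Scaled by library totals, an alternative chosen after seeing the data, the calls at 10% CO2 split into 1520 rises and 5727 falls, against 2727 and 3046 with TMM. The split at 5% CO2 was 1172 rises and 4226 falls, against 1940 and 2152 with TMM. Of the 10, 5 were then called higher and 1 lower at 10% CO2, and 6 higher and 1 lower at 5% CO2. In TPM, libraries with and without LPS failed to overlap for 4 of the 10 at 10% CO2 and 8 of the 10 at 5% CO2, against 53.8% and 47.6% of all genes. The CPM, overlaps and changes that follow are on the TMM scale unless another is named.

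PPP1R15A (ENSG00000087074, chr19:48872392-48876057, plus strand; positions here and for the genes that follow are GRCh38, from the count tables) had 700.0, 544 and 575 CPM at 10% CO2 with LPS, against 24.6, 20.4 and 32.3 CPM at 10% CO2. Its levels at 5% CO2 were 856, 832 and 677 CPM with LPS, against 36.5, 34.2 and 25.9 CPM without. All LPS libraries lay above all libraries without LPS. Over all genes, libraries with and without LPS failed to overlap for 46.1% at 10% CO2 and 39.2% at 5% CO2, against 7 of the 10 at 10% CO2 and 8 of the 10 at 5% CO2. The log2 change was 4.55 ± 0.19 (SE) at 10% CO2, a 23.5-fold rise, with adjusted p = 5.65e-10. At 5% CO2 it was 4.62 ± 0.19, a 24.5-fold rise, with adjusted p = 5.73e-10.

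EIF2AK3, the PERK kinase (ENSG00000172071, chr2:88556741-88627576, minus strand), had 10.7, 13.1 and 11.5 CPM at 10% CO2 with LPS, against 11.9, 9.63 and 10.1 CPM at 10% CO2. At 5% CO2 it had 11.6, 10.4 and 9.89 CPM with LPS, against 12.1, 10.6 and 11.3 CPM without. The groups overlapped in CPM at both CO2 levels. In TPM the pair at 5% CO2 did not overlap, with a ratio of means of 0.804. That ratio lay at −0.08 on the log2 scale relative to the median of all genes. The 95% intervals of the EIF2AK3 log2 change with LPS were −0.12 to 0.43 at 10% CO2 and −0.37 to 0.17 at 5% CO2. Its raw counts were only 181 to 268 per library.

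Among the transcription factors, ATF4 (ENSG00000128272, chr22:39519695-39522685, plus strand) had 919, 836 and 864 CPM at 10% CO2 with LPS, against 635, 644 and 681 CPM at 10% CO2. The 5% CO2 libraries had 895, 834 and 852 CPM with LPS, against 670 (replicate 1), 653 and 592 CPM without. All LPS libraries were above all others, with no overlap at either CO2 level. ATF4 rose by 0.42 ± 0.07 at 10% CO2 (1.34-fold, adjusted p = 0.000171) and by 0.43 ± 0.07 at 5% CO2 (1.35-fold, adjusted p = 0.000186) on the log2 scale. In TPM its libraries with and without LPS overlapped at 10% CO2, with a ratio of means of 1.11, and did not overlap at 5% CO2, with a ratio of 1.16. Those TPM ratios lie 0.44 and 0.45 on the log2 scale above the median of all genes. By library totals only, the log2 rise was 0.20 at 10% CO2 (adjusted p = 0.0229) and 0.26 at 5% CO2 (adjusted p = 0.00679).

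ATF5, a bZIP factor whose mRNA is also under translational control (ENSG00000169136, chr19:49928702-49933935, plus strand), had 149.5, 139 and 147 CPM at 10% CO2 with LPS, against 100.1, 106 and 125 CPM at 10% CO2. With LPS at 5% CO2 it had 156, 137 and 169.6 CPM, against 105, 106 and 104 CPM without LPS. Neither pair of groups overlapped in CPM, but in TPM the pair at 10% CO2 did, with a ratio of means of 1.09. The log2 rise was 0.39 ± 0.09 at 10% CO2 (adjusted p = 0.00265) and 0.56 ± 0.09 at 5% CO2 (adjusted p = 0.000168). By library totals only, the call at 10% CO2 was lost (log2 0.18, adjusted p = 0.138). ATF5 shares 626 exon bases, 21.19% of its length, with NUP62 and 75 bases, 2.54%, with IL4I1, both on the opposite strand. No strand setting is given for the counting in the sources used here, so reads from ATF5 and from these neighbours cannot be told apart over the shared bases. IL4I1 rose with LPS by 4.28 ± 0.25 at 10% CO2 and by 3.75 ± 0.24 at 5% CO2, while NUP62 was at 0.01 ± 0.09 in both, and their part in the ATF5 values was not tested.

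DDIT3, which encodes the pro-apoptotic factor CHOP (ENSG00000175197, chr12:57516588-57520517, minus strand), had lower levels with LPS. It had 24.2, 17.6 and 22.0 CPM at 10% CO2 with LPS, against 29.3, 27.3 and 38.1 CPM at 10% CO2. At 5% CO2 it had 26.2, 25.1 and 24.7 CPM with LPS, against 34.5, 33.2 and 29.4 CPM without. All LPS libraries were below all others at each CO2 level. It fell by 0.57 ± 0.13 on the log2 scale at 10% CO2 (adjusted p = 0.0022). At 5% CO2 the log2 change was −0.35 ± 0.13 (adjusted p = 0.0529), which passed the threshold without 5% CO2 replicate 3 (adjusted p = 0.0443), 10% CO2 replicate 1 (0.0473), 10% CO2 replicate 3 (0.0231) or 10% CO2 with LPS replicate 2 (0.045). It also passed with no low-count filter (0.0431), with only the compared groups (0.0186), with the replicate block (0.0379) and by library totals only (log2 −0.53, adjusted p = 0.0049). DDIT3 shares 355 exon bases, 28.04% of its length, with the methionyl-tRNA synthetase gene MARS1 on the opposite strand. MARS1 rose with LPS by 0.37 ± 0.08 at 10% CO2 and by 0.28 ± 0.08 at 5% CO2. Without a stated strand setting, reads over the shared bases cannot be told apart, and the part of MARS1 in the DDIT3 values was not tested.

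Among the targets, CHAC1, an enzyme that breaks down glutathione (ENSG00000128965, chr15:40952962-40956519, plus strand), had 62.6, 67.6 and 64.7 CPM at 10% CO2 with LPS, against 29.3, 28.4 and 37.2 CPM at 10% CO2. The levels at 5% CO2 were 40.0, 43.4 and 59.5 CPM with LPS, against 26.1, 27.9 and 27.8 CPM without. Neither pair of groups overlapped, and the replicates at 5% CO2 with LPS were spread most widely. CHAC1 rose by 1.04 ± 0.13 at 10% CO2 (2.05-fold, adjusted p = 4.74e-06) and by 0.80 ± 0.13 at 5% CO2 (1.75-fold, adjusted p = 0.000143).

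SESN2, a sestrin that restrains mTORC1 when leucine is short (ENSG00000130766, chr1:28259527-28282491, plus strand), had 88.3, 79.6 and 94.3 CPM at 10% CO2 with LPS, against 50.0, 47.6 and 64.4 CPM at 10% CO2. With LPS at 5% CO2 it had 101, 97.2 and 85.0 CPM, against 55.4, 58.2 and 50.6 CPM without LPS. The LPS libraries were the higher ones in both pairs, with no overlap in CPM. In TPM the pair at 10% CO2 overlapped, with a ratio of means of 1.35. Its log2 rise was 0.70 ± 0.11 at 10% CO2 (adjusted p = 7.62e-05) and 0.79 ± 0.11 at 5% CO2 (adjusted p = 2.8e-05).

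ASNS, asparagine synthetase (ENSG00000070669, chr7:97852118-97872542, minus strand), had 114, 129 and 132 CPM at 10% CO2 with LPS, against 81.1, 86.8 and 87.1 CPM at 10% CO2. At 5% CO2 it had 90.6, 94.1 and 111 CPM with LPS, against 64.5, 59.6 and 74.7 CPM without. Again no library of one group reached the other in CPM, while in TPM the pair at 5% CO2 overlapped, with a ratio of means of 1.27. The log2 rise was 0.56 ± 0.10 at 10% CO2 (adjusted p = 0.000206) and 0.57 ± 0.10 at 5% CO2 (adjusted p = 0.000257).

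TRIB3, a pseudokinase that binds ATF4 and restrains it (ENSG00000101255, chr20:362835-397559, plus strand), did not pass the test with LPS at either CO2 level. It had 262, 199 and 264 CPM at 10% CO2 with LPS, against 245, 229.9 and 314 CPM at 10% CO2. At the lower CO2 level it had 310.1, 289 and 253 CPM with LPS, against 292, 271 and 228 CPM without. The groups overlapped in both comparisons. Its log2 change with LPS had 95% intervals of −0.40 to 0.16 at 10% CO2 and −0.17 to 0.39 at 5% CO2, so a rise as large as that of CHAC1 on the same scale was outside both.

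STC2, a secreted stanniocalcin glycoprotein (ENSG00000113739, chr5:173314713-173329503, minus strand), had 27.0, 23.0 and 32.9 CPM at 10% CO2 with LPS, against 22.3, 20.4 and 29.1 CPM at 10% CO2. At 5% CO2 it had 18.2, 20.7 and 18.9 CPM with LPS, against 14.5, 13.8 and 14.9 CPM without. The groups overlapped at 10% CO2 and did not at 5% CO2. STC2 rose by 0.42 ± 0.14 at 5% CO2 (adjusted p = 0.0363), a call lost without any of the 3 libraries at 5% CO2 (adjusted p = 0.0793, 0.0997 and 0.0662 without replicates 1, 2 and 3), or without replicate 2 (0.107) or 3 (0.0718) at 5% CO2 with LPS. By library totals only it was lost as well (log2 0.25, adjusted p = 0.232). At 10% CO2 the log2 change was 0.21 ± 0.14 (adjusted p = 0.262), and it passed without 10% CO2 replicate 3 (log2 0.37, adjusted p = 0.0436) and with the GC correction and the replicate block together (log2 0.30, adjusted p = 0.0207).

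**Figure D2:**
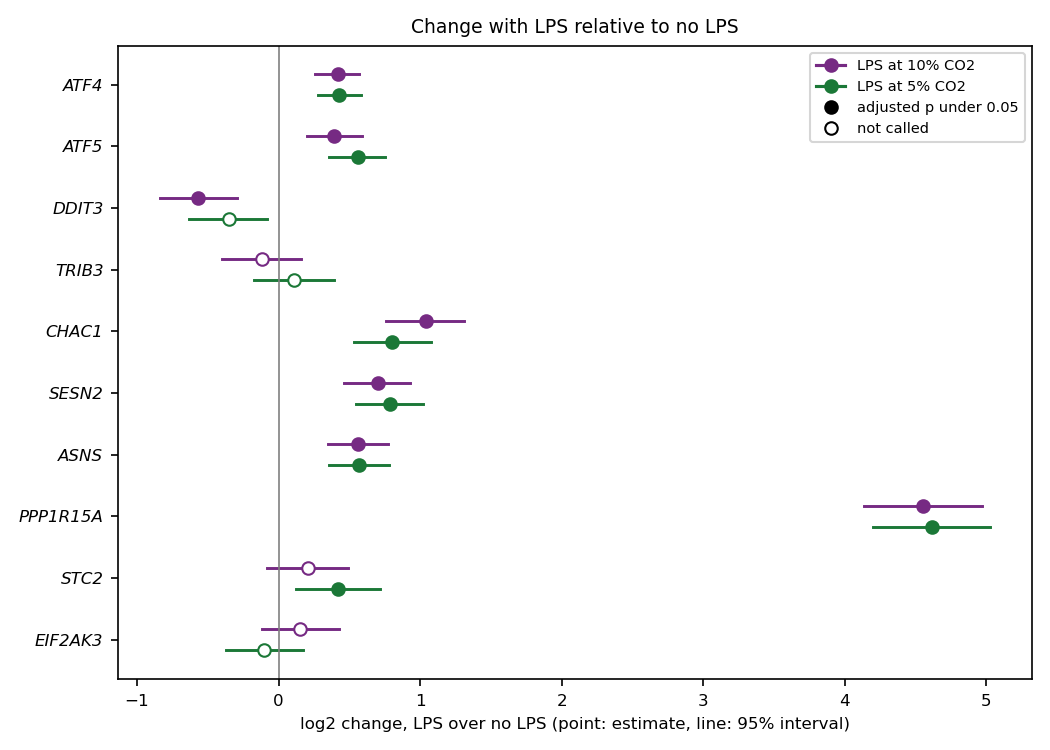
Log2 change with LPS over no LPS for the 10 genes at 10% CO2 (upper point of each pair) and 5% CO2 (lower point), with 95% intervals, filled where the adjusted p was under 0.05. PPP1R15A stands at 4.55 and 4.62, the other called rises lie between 0.39 and 1.04, and DDIT3 lies below 0.

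The change of CO2 level was accompanied by smaller differences in fewer of the 10 genes, with the calls on STC2, ASNS and CHAC1 and 0 of the 3 transcription factors called. Without LPS, 1 gene, STC2, rose at 10% CO2 and 0 fell, where 1.46% of all genes were called (0.799% higher and 0.665% lower). With LPS, STC2, ASNS and CHAC1 rose and 0 fell, where the called share of all genes was 8.75% (4.29% in the higher and 4.46% in the lower direction). At an unadjusted p under 0.05, 0 of the 10 were lower without LPS and 1 was lower with LPS, and DESeq2 called 0 lower in either comparison. The median log2 change of the 10 was −0.03 with LPS and 0.02 without, against −0.01 over all genes in both. Libraries at 10% and 5% CO2 did not overlap for 4 of the 10 with LPS and 3 of the 10 without, against 31.4% and 20.7% of all genes. In TPM they did not overlap for 2 of the 10 with LPS and 1 of the 10 without, against 31.6% and 21.6%, and the TPM of all genes had a median log2 change of −0.13 with LPS and −0.09 without. By library totals only, where that median was −0.05 with LPS, the calls split into 505 rises and 970 falls, against 703 and 732 with TMM, and the calls of STC2 (adjusted p = 0.0507), CHAC1 (0.0619) and ASNS (0.0772) with LPS were all lost. The part of the higher mitochondrial share at 10% CO2 in these differences was not tested beyond leaving those genes out.

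STC2 had the largest log2 difference of the 10 in both comparisons. The 10% CO2 libraries lay above the 5% CO2 libraries both with LPS (23.0 to 32.9 against 18.2 to 20.7 CPM) and without LPS (20.4 to 29.1 against 13.8 to 14.9 CPM). Their own spread was wide, with replicate 3 the highest at 10% CO2 in both cases. With LPS the log2 rise was 0.52 ± 0.14 (1.43-fold, adjusted p = 0.0265). That call was lost without replicate 1, 2 or 3 at 5% CO2 with LPS (adjusted p = 0.111, 0.0587 and 0.0509) and without replicate 3 at 10% CO2 with LPS (log2 0.37, adjusted p = 0.135). Without LPS the rise was 0.73 ± 0.14 (1.66-fold, adjusted p = 0.0184). Leaving out 5% CO2 replicate 1 gave an adjusted p of 0.0975, 5% CO2 replicate 2 gave 0.0649 and 10% CO2 replicate 2 gave 0.122. Over all genes 1, 4 and 0 were called on these drops, against 240 with every library. The log2 value of STC2 stayed between 0.57 and 0.84 under all alternatives. In TPM the groups overlapped with LPS and did not without.

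ASNS had 114 to 132 CPM at 10% CO2 with LPS, against 90.6 to 111 CPM at 5% CO2 with LPS, and 81.1 to 87.1 CPM at 10% CO2, against 59.6 to 74.7 CPM at 5% CO2. The groups did not overlap in CPM in either comparison and overlapped in TPM in both. With LPS it rose by 0.35 ± 0.10 (1.27-fold, adjusted p = 0.0363). The call was lost when 5% CO2 with LPS replicate 1 (adjusted p = 0.167) or 2 (0.135) was dropped, and likewise for 10% CO2 with LPS replicate 2 (0.141) or 3 (0.118), or 10% CO2 replicate 2 (0.0501). Without LPS the log2 change was nearly the same, 0.36 ± 0.10, but did not pass (adjusted p = 0.0751). Leaving out 5% CO2 replicate 3 took it just past the threshold (log2 0.45), and it passed in DESeq2 (adjusted p = 0.031), with no low-count filter (0.0191), with the replicate block (0.0229), with the GC correction (0.0323) and with the last 2 together (0.00171).

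CHAC1 had 62.6 to 67.6 CPM at 10% CO2 with LPS, against 40.0 to 59.5 CPM at 5% CO2 with LPS, with no overlap in CPM but overlap in TPM. It rose by 0.45 ± 0.13 (1.36-fold, adjusted p = 0.0381). Without replicate 1 at 5% CO2 with LPS the log2 change was 0.34 (adjusted p = 0.19), and the call was also lost without replicate 2 of that group (0.155), without replicate 1, 2 or 3 at 10% CO2 with LPS (0.062, 0.146 and 0.0837), and with the libraries of only these groups in the fit (0.0563). Without LPS it had 28.4 to 37.2 CPM at 10% CO2, against 26.1 to 27.9 CPM at 5% CO2, and a log2 change of 0.22 ± 0.13 (adjusted p = 0.422).

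ATF4 had the narrowest interval of the 10 between CO2 levels, around a value close to 0. Its means were 873 ± 42.5 CPM at 10% CO2 with LPS and 860.2 ± 31.2 CPM at 5% CO2 with LPS, and 654 ± 24.4 CPM at 10% CO2 and 639 ± 40.8 CPM at 5% CO2 (SD, n = 3 each). The groups overlapped in both comparisons. The 95% interval of its log2 change was −0.13 to 0.17 with LPS and −0.12 to 0.19 without, which leaves out changes of the size seen for STC2 in the same comparisons. ATF5 had intervals of −0.28 to 0.11 with LPS and −0.12 to 0.27 without.

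PPP1R15A had a lower mean at 10% CO2 in both comparisons without passing the test. With LPS it averaged 606 ± 82.5 CPM at 10% CO2 and 789 ± 97.4 CPM at 5% CO2, a log2 change of −0.38 ± 0.16 (unadjusted p = 0.0355, adjusted p = 0.166, edgeR). Without LPS it averaged 25.8 ± 6.03 CPM at 10% CO2 and 32.2 ± 5.58 CPM at 5% CO2, a log2 change of −0.32 ± 0.17 (adjusted p = 0.376). Libraries of the groups overlapped in CPM in both. In TPM they overlapped without LPS and did not with LPS, where the ratio of means was 0.703. On the log2 scale that ratio lay at −0.37 relative to the median of all genes. With no filter on low counts the change with LPS passed in edgeR (adjusted p = 0.00152).

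The other 4 genes gave wide intervals around small changes. With LPS the log2 change at 10% against 5% CO2 was −0.25 ± 0.13 for DDIT3, −0.23 ± 0.13 for TRIB3, −0.11 ± 0.11 for SESN2 and 0.15 ± 0.13 for EIF2AK3, with adjusted p from 0.252 to 0.578. Without LPS the values were −0.04 ± 0.13 for DDIT3, −0.02 ± 0.11 for SESN2 and −0.11 ± 0.13 for EIF2AK3, and TRIB3 had a ratio of 0.998. DDIT3 libraries at 10% CO2 with LPS all lay below those at 5% CO2 with LPS, and the others overlapped in CPM. In TPM the same held, with a ratio of means of 0.772 for DDIT3 with LPS. MARS1, which overlaps DDIT3, rose at 10% CO2 with LPS by 0.34 ± 0.08 (adjusted p = 0.0145), and its part in these DDIT3 values was not tested.

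**Figure D3:**
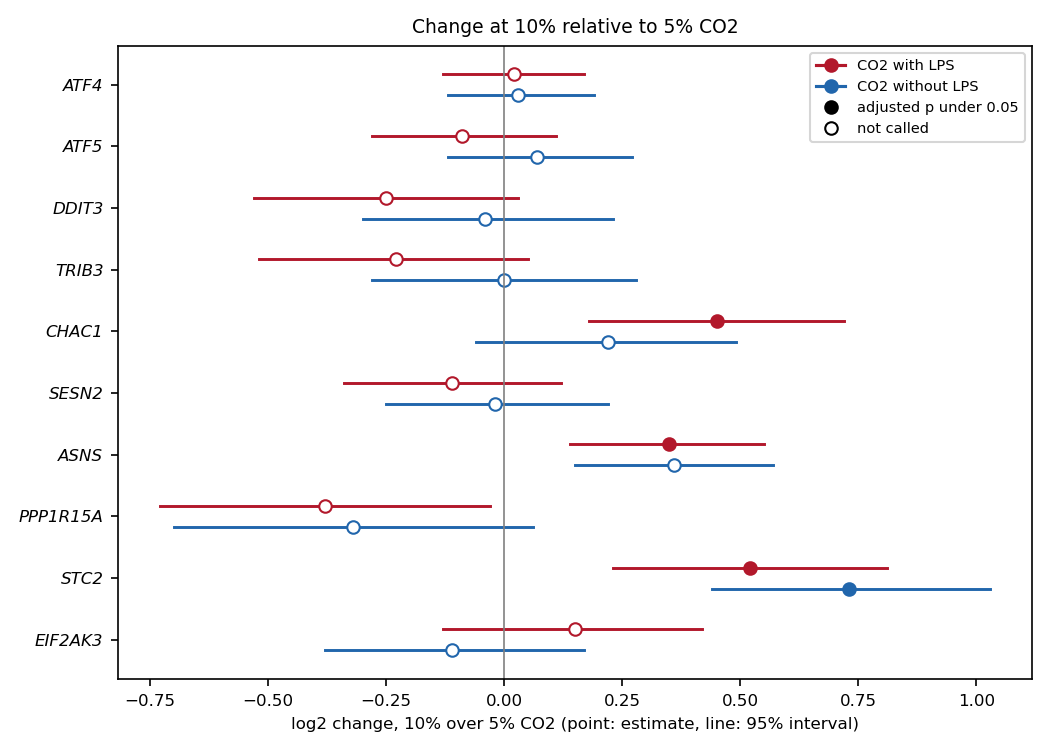
Log2 change at 10% over 5% CO2 for the 10 genes with LPS (upper point of each pair) and without LPS (lower point), with 95% intervals, filled where the adjusted p was under 0.05. STC2 at 0.52 and 0.73, ASNS at 0.35 and CHAC1 at 0.45 are the filled points, and ATF4 sits at 0.02 and 0.03.

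Whether LPS acted differently at 10% and 5% CO2 was tested as an interaction. For 0 of the 10 genes did the LPS effect differ between CO2 levels, where 0.0244% of all genes were called, and 0 had an unadjusted p under 0.05 in edgeR or a call in DESeq2. The 95% interval of the difference in log2 change was −0.23 to 0.20 for ATF4, −0.58 to 0.45 for PPP1R15A and −0.16 to 0.62 for CHAC1. The intervals show how large a difference these 3 libraries per group could have missed.

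Averaged over both LPS states, 3 of the 10 rose at 10% CO2 and 0 fell, where 16.8% of all genes were called (8.06% higher and 8.69% lower). STC2 rose by 0.63 ± 0.10 (adjusted p = 0.000567), ASNS by 0.35 ± 0.07 (adjusted p = 0.00287) and CHAC1 by 0.33 ± 0.09 (adjusted p = 0.0204). STC2 and ASNS kept this call without any 1 library, while CHAC1 lost it without 5% CO2 replicate 1 (adjusted p = 0.0509), or without replicate 1 (0.0597) or 2 (0.0516) at 5% CO2 with LPS. PPP1R15A was at −0.35 ± 0.12 (unadjusted p = 0.0121, adjusted p = 0.0637). It passed in DESeq2 (adjusted p = 0.016), with no low-count filter (3.75e-05), by library totals only (0.0438) and without 5% CO2 replicate 3 (0.0256), 5% CO2 with LPS replicate 3 (0.0316), 10% CO2 replicate 3 (0.0144) or 10% CO2 with LPS replicate 1 (0.0359). This average uses the same libraries as the comparisons above and adds no new samples. ATF4 averaged 0.03 ± 0.05 with an interval of −0.08 to 0.14, and passed with the GC correction and the replicate block together (log2 0.10, adjusted p = 0.048).

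Several of the 10 genes deviated together between replicates of a group. At 10% CO2 replicate 3 was the highest library for 9 of the 10, with a mean deviation of 0.19 on the log2 scale from its group mean, and EIF2AK3 was the exception. Replicate 2 of that group was the lowest for 7 of the 10, with a mean deviation of −0.14. At 10% CO2 with LPS replicate 2 was the lowest for 7 of the 10. The mitochondrial share of counts was 3.05%, 2.91% and 2.01% in replicates 1, 2 and 3 at 10% CO2, and 2.92%, 4.15% and 2.28% at 10% CO2 with LPS, so the library with the lowest share at 10% CO2 was the one with the high stress gene levels. The part of this share in the levels was not tested. PPP1R15A, STC2, DDIT3, TRIB3, SESN2 and CHAC1 showed the joint deviation most at 10% CO2 without LPS. At 10% CO2 with LPS, CHAC1 was instead highest in replicate 2 (deviation 0.058). At 5% CO2 no library stood apart for more than 6 of the 10 in one direction.

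**Figure D4:**
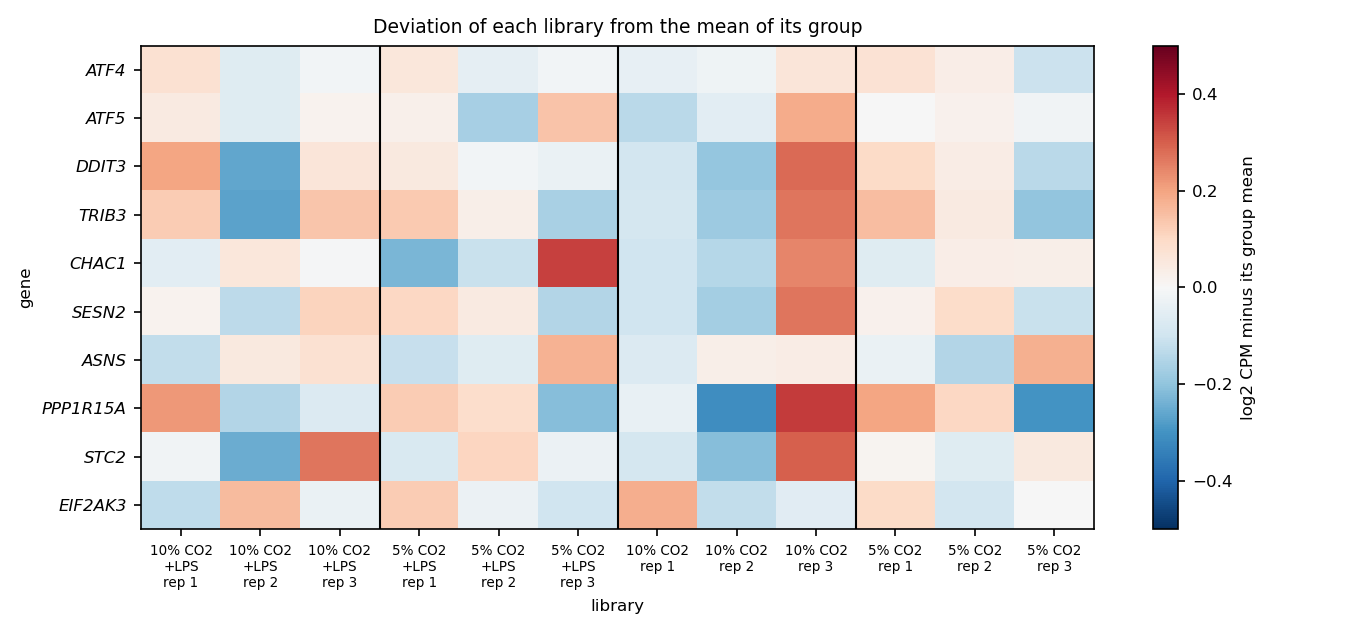
Log2 CPM of each gene in each library minus the mean of its group, for the 12 libraries in columns and the 10 genes in rows (red above, blue below the group mean). The column of 10% CO2 replicate 3 is red for 9 of 10 genes, and its mean deviation is 0.19.

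Profiles over the 12 libraries were compared with that of ATF4 after each gene's log2 CPM was centred and scaled, among the 10810 genes that averaged 5 CPM or more. The 5 nearest were the chemokine gene CCL5, SCAT8, the polo-like kinase gene PLK3, the hyaluronan synthase gene HAS3 and PEA15, with root mean square differences of 0.147 to 0.184. CCL5 averaged 335 CPM at 10% CO2 with LPS, 334 CPM at 5% CO2 with LPS, 201 CPM at 10% CO2 and 195 CPM at 5% CO2. Of the other 9 genes, PPP1R15A was nearest at rank 43, followed by SESN2 at 200, ATF5 at 339, CHAC1 at 797 and ASNS at 1514. STC2 ranked 3122, TRIB3 4712, EIF2AK3 5115 and DDIT3 8731. Each of the 5 nearest averaged more with LPS than without at both CO2 levels, as ATF4 did, and the likeness is a description over 12 libraries.

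The wider set of ATF4 and CHOP targets, 42 tested genes beside the 10, were compared between 10% and 5% CO2. With LPS 8 rose, 1 fell and the list median was 0.15, where 4.29% of all genes rose, 4.46% fell and the median was −0.01. Without LPS 4 rose, 1 fell and the list median was 0.11, beside shares of 0.799% and 0.665% and a median of −0.01 over all genes. At 10% against 5% CO2 with LPS, PSPH and PSAT1, enzymes of serine synthesis, rose by 0.61 ± 0.10 and 0.51 ± 0.09. In that comparison GABARAPL1, an autophagy gene, fell by 0.89 ± 0.18 (adjusted p = 0.00621). Without LPS the rises were in PYCR1, an enzyme of proline synthesis (0.72 ± 0.11, adjusted p = 0.0124), PSAT1 (0.51 ± 0.09), PSPH (0.45 ± 0.09) and, named after its values were seen, the amino acid transporter gene SLC1A5 (0.35 ± 0.07). KLHL24 fell by 0.70 ± 0.17 and was likewise named afterwards. All 5 calls without LPS were lost when 5% CO2 replicate 1 (adjusted p from 0.0834 to 0.149) or 10% CO2 replicate 2 (0.122 to 0.25) was dropped. Over all genes only 1 and 0 calls were left on these drops, and 4 on dropping 5% CO2 replicate 2, against 240 with every library. All of the list's calls but PYCR1 were also lost on dropping 5% CO2 replicate 2 (0.0534 to 0.0778), and PSPH with only the compared groups (0.0701). SLC1A5 and KLHL24 were further lost on dropping 5% CO2 replicate 3 (0.0633 and 0.121), and KLHL24 on dropping 10% CO2 replicate 3 (0.0806), 5% CO2 with LPS replicate 2 (0.0551) or 10% CO2 with LPS replicate 3 (0.065). With LPS, 5 of the 9 calls held without each library in turn, those of PSPH, PSAT1 and GABARAPL1 among them. FGF21 was too low to test, with at most 3 counts. With LPS over no LPS there were 15 rises, 9 falls and 18 genes not called at 10% CO2 (list median 0.09), where 16.6% of all genes rose and 18.6% fell. At 5% CO2 there were 11 rises, 7 falls and 24 not called (list median 0.14), beside 11.8% and 13.1% of all genes. Without each library in turn, 16 of the 24 calls at 10% CO2 and 15 of the 18 at 5% CO2 held. BCL2L11, the pro-apoptotic factor BIM, rose by 2.05 ± 0.14 at 10% CO2 and 1.51 ± 0.14 at 5% CO2. CLIC4 rose by 1.5 ± 0.11 and 1.22 ± 0.11, the mTORC1 inhibitor gene DDIT4 by 1.52 ± 0.13 and 1.06 ± 0.13, and MTHFD2, an enzyme of mitochondrial folate metabolism, by 0.81 ± 0.08 and 0.70 ± 0.08.

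The list around eIF2 had 23 tested genes. Beside kinases, phosphatases and exchange factors it held eIF2 subunits and further genes such as EIF2A, DELE1, OMA1 and QRICH1. At 10% against 5% CO2, 3 rose and 2 fell with LPS (list median 0.12, against 4.29% and 4.46% of all genes), and 2 rose and 1 fell without LPS (list median 0.06, against 0.799% and 0.665%). EIF2B3, a subunit of the exchange factor eIF2B, rose by 0.59 ± 0.11 with LPS (adjusted p = 0.00383) and 0.58 ± 0.11 without (adjusted p = 0.018). OMA1, a mitochondrial protease that relays stress to eIF2 kinases, rose by 0.71 ± 0.14 without LPS and 0.52 ± 0.13 with LPS (adjusted p = 0.0238). The call with LPS was lost on dropping 5% CO2 with LPS replicate 1 (0.113) or 2 (0.0909), or 10% CO2 with LPS replicate 2 (0.155). QRICH1 fell by 0.39 ± 0.08 in both comparisons. The other fall with LPS, named after its values were seen, was the eIF2 kinase gene EIF2AK1 (−0.24 ± 0.07, adjusted p = 0.0473). Its call was lost on dropping any library except 10% CO2 replicate 1 or 3 (0.0533 to 0.241). GCN1, the activator of the kinase GCN2, rose by 0.36 ± 0.09 at 10% against 5% CO2 with LPS (adjusted p = 0.0187). Of the named calls, that of EIF2B3 with LPS held without each library in turn. The calls of EIF2B3, OMA1 and QRICH1 without LPS were lost on dropping 5% CO2 replicate 1 (adjusted p = 0.0942, 0.119 and 0.143). Dropping 5% CO2 replicate 2 (0.053, 0.0534 and 0.0928) or 10% CO2 replicate 2 (0.146, 0.15 and 0.151) lost them too. Over all genes 1, 4 and 0 were called on these drops, against 240 with every library. The QRICH1 call without LPS was also lost with only the compared groups (0.0899). With LPS, the calls of GCN1 and QRICH1 were lost on dropping 10% CO2 with LPS replicate 2 (0.0758 and 0.07). They were also lost on dropping 5% CO2 with LPS replicate 1 (0.0975 and 0.0589), and that of GCN1 on dropping 5% CO2 with LPS replicate 3 (0.0542).

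With LPS itself the eIF2 list had 7 rises, 2 falls and 14 genes not called at 10% CO2 (list median 0.08), and 5 rises, 1 fall and 17 not called at 5% CO2 (0.07). Of all genes 16.6% rose and 18.6% fell at 10% CO2, and 11.8% and 13.1% at 5% CO2. In the list, 6 of 9 calls at 10% CO2 and 2 of 6 at 5% CO2 held without each library in turn. PPP1R15B, the constitutive counterpart of PPP1R15A, rose by 0.88 ± 0.10 at 10% CO2 and 0.89 ± 0.09 at 5% CO2, where PPP1R15A rose by 4.55 and 4.62. EIF2S2, the beta subunit of eIF2, rose by 0.48 ± 0.07 and 0.50 ± 0.07. DNAJC3, an inhibitor of eIF2 kinases, rose by 0.74 ± 0.12 at 10% CO2 (adjusted p = 7.75e-05) and 0.38 ± 0.12 at 5% CO2 (0.0249). The second call was lost on dropping 5% CO2 replicate 2 (0.114) or 3 (0.0529), or 5% CO2 with LPS replicate 1 (0.076) or 3 (0.0661). The adaptor gene NCK1 fell by 0.30 ± 0.10 at 10% CO2 (0.034) and 0.39 ± 0.11 at 5% CO2. Its call at 5% CO2 was lost without replicate 1 at 5% CO2 with LPS (adjusted p = 0.0541). That at 10% CO2 was lost on dropping 10% CO2 replicate 1 (0.0741) or 2 (0.123), or 10% CO2 with LPS replicate 1 (0.0934) or 3 (0.15).

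The partners of ATF4 and related bZIP factors, were 22 genes tested. With LPS 7 rose, 6 fell and 9 were not called at 10% CO2 (list median 0.12, where 16.6% of all genes rose and 18.6% fell). At 5% CO2 6 rose, 5 fell and 11 were not called (list median 0.05, where 11.8% and 13.1% did). Of these calls, 11 of 13 at 10% CO2 and 10 of 11 at 5% CO2 held without each library in turn. NFE2L2, the oxidative stress factor NRF2, rose by 2.59 ± 0.09 and 2.52 ± 0.09, XBP1, a factor of the unfolded protein response, by 1.57 ± 0.07 and 1.55 ± 0.07, and ATF3, an ATF4 target and partner, by 2.55 ± 0.16 and 2.65 ± 0.16 at 10% and 5% CO2. At 10% against 5% CO2, 0 rose and 2 fell with LPS, and 0 rose and 1 fell without, with list medians of 0.01 and −0.04. Over all genes 4.29% rose and 4.46% fell with LPS, and 0.799% and 0.665% without. DESeq2 called 2 rises and 1 rise, and 4 and 3 had an unadjusted p under 0.05 in the higher direction. With LPS the falls were CEBPA (−0.88 ± 0.18) and CREB3L2 (−0.80 ± 0.17). The CEBPA call was lost on dropping replicate 1 at 5% CO2 with LPS (adjusted p = 0.0612) or replicate 2 at 10% CO2 with LPS (0.076), and that of CREB3L2 with only the compared groups (0.0684). Without LPS the fall was CREBRF (−0.74 ± 0.17). It was lost on dropping replicate 1, 2 or 3 at 5% CO2 (0.149, 0.0731 and 0.0919) or replicate 2 or 3 at 10% CO2 (0.204 and 0.093). Dropping replicate 1 at 10% CO2 with LPS (0.0502) or fitting only the compared groups (0.0715) lost it as well. Over all genes 1, 4 and 0 were called on dropping 5% CO2 replicate 1, 5% CO2 replicate 2 and 10% CO2 replicate 2, against 240 with every library.

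In the ATF6 and XBP1 branch of the unfolded protein response 24 genes were tested. With LPS at 10% CO2, 9 rose and 2 fell (list median 0.15), against shares of 16.6% and 18.6% over all genes. At 5% CO2, 6 rose and 2 fell (list median 0.14), against 11.8% and 13.1%. Only 4 of these 11 calls at 10% CO2 and 2 of the 8 at 5% CO2 held without each library in turn. ERN1, the IRE1 kinase that splices XBP1, rose by 0.83 ± 0.12 at 10% CO2 and 0.64 ± 0.12 at 5% CO2, and EDEM1, a gene of ER-associated degradation, by 0.62 ± 0.08 and 0.43 ± 0.08. The chaperone gene DNAJB11 rose by 0.44 ± 0.09 and 0.34 ± 0.09, the second lost on dropping 5% CO2 replicate 2 (adjusted p = 0.0586) or 5% CO2 with LPS replicate 3 (0.0652), or by library totals only (0.168). With CO2, 0 rose and SYVN1 (−0.36 ± 0.10) and SEC24D (−0.30 ± 0.09) fell with LPS, and 0 were called without LPS, with list medians of 0.03 and −0.02. The shares of all genes were 4.29% higher and 4.46% lower with LPS, and 0.799% and 0.665% without. Without LPS 1 higher and 3 lower genes had an unadjusted p under 0.05 in edgeR, and DESeq2 called 0 higher and 1 lower. With LPS 1 was higher at an unadjusted p under 0.05 and DESeq2 called 0 higher. Both falls were lost on dropping replicate 1 or 2 at 10% CO2 with LPS (adjusted p = 0.0897 and 0.17 for SYVN1, 0.109 and 0.245 for SEC24D) or replicate 1 or 2 at 5% CO2 with LPS (0.131 and 0.122 for SYVN1, 0.0733 and 0.195 for SEC24D). SYVN1 was also lost on dropping 10% CO2 with LPS replicate 3 (0.0533) and with the GC correction (log2 −0.24, adjusted p = 0.0581), and SEC24D on dropping 5% CO2 with LPS replicate 3 (0.0558), 5% CO2 replicate 1 (0.0555) or 10% CO2 replicate 2 (0.0558).

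Of 12 mitochondrial stress genes linked to ATF5, 2 rose and 0 fell at 10% CO2 with LPS (list median 0.16, where 4.29% of all genes rose and 4.46% fell). They were HSPD1 (0.69 ± 0.12, adjusted p = 0.00347) and HSPE1 (0.58 ± 0.12, lost without 10% CO2 with LPS replicate 2, adjusted p = 0.0602), which encode the mitochondrial HSP60 and HSP10. Without LPS 0 were called (list median 0.19, where 1.46% of all genes were), with 6 higher and 0 lower at an unadjusted p under 0.05 in edgeR and 3 higher in DESeq2. LPS was followed by 5 rises and 1 fall at 10% CO2 (list median 0.09), where 35.2% of all genes were called. At 5% CO2 there were 3 rises and 1 fall (list median 0.13), where 24.9% of all genes were called. Without each library in turn, 4 of the 6 calls at 10% CO2 and 4 of the 4 at 5% CO2 held. HSPA9, the mitochondrial HSP70, rose by 0.51 ± 0.07 at 10% CO2 and 0.43 ± 0.07 at 5% CO2, and the protease gene YME1L1 by 0.46 ± 0.08 and 0.39 ± 0.08. HSPD1 rose by 0.60 ± 0.12 at 10% CO2, and TIMM17A, of the mitochondrial import machinery, by 0.32 ± 0.08 at 5% CO2, a call lost by library totals only (0.15, adjusted p = 0.16). TIMM17A was also called higher at 10% CO2, a call lost without 10% CO2 with LPS replicate 1 (log2 0.22, adjusted p = 0.0861).

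Of 5 tested paralogues of the 10 genes, 3 rose and 2 fell with LPS at 10% CO2 (list median 0.24), where 35.2% of all genes were called. At 5% CO2 1 rose and 1 fell (list median −0.01), where 24.9% of all genes were called. Of these calls, 2 of 5 at 10% CO2 and 2 of 2 at 5% CO2 held without each library in turn. TRIB1 rose with LPS by 1.16 ± 0.22 at 10% CO2 and 1.27 ± 0.21 at 5% CO2, where TRIB3 did not pass. SESN3 fell by 0.67 ± 0.12 and 0.54 ± 0.12, where SESN2 rose. TRIB2 fell with LPS at 10% CO2 by 1.16 ± 0.34, at means of 0.989 and 2.22 CPM with and without LPS, lost without replicate 1 at 10% CO2 (adjusted p = 0.062) or 10% CO2 with LPS (0.0526). At 10% against 5% CO2 with LPS 1 of the 5 rose and 0 fell (list median −0.01), where 4.29% and 4.46% of all genes did. That gene was SESN1, which rose by 0.36 ± 0.09 (adjusted p = 0.0186), a call lost on dropping replicate 1 (0.0833) or 2 (0.0636) at 5% CO2 with LPS, or replicate 2 (0.0751) or 3 (0.0649) at 10% CO2 with LPS, or with no low-count filter (0.0545). At 10% against 5% CO2 without LPS 0 of the 5 were called, with 0 at an unadjusted p under 0.05 and 0 in DESeq2. STC1 had at most 3 counts and was not tested.

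**Figure D5:**
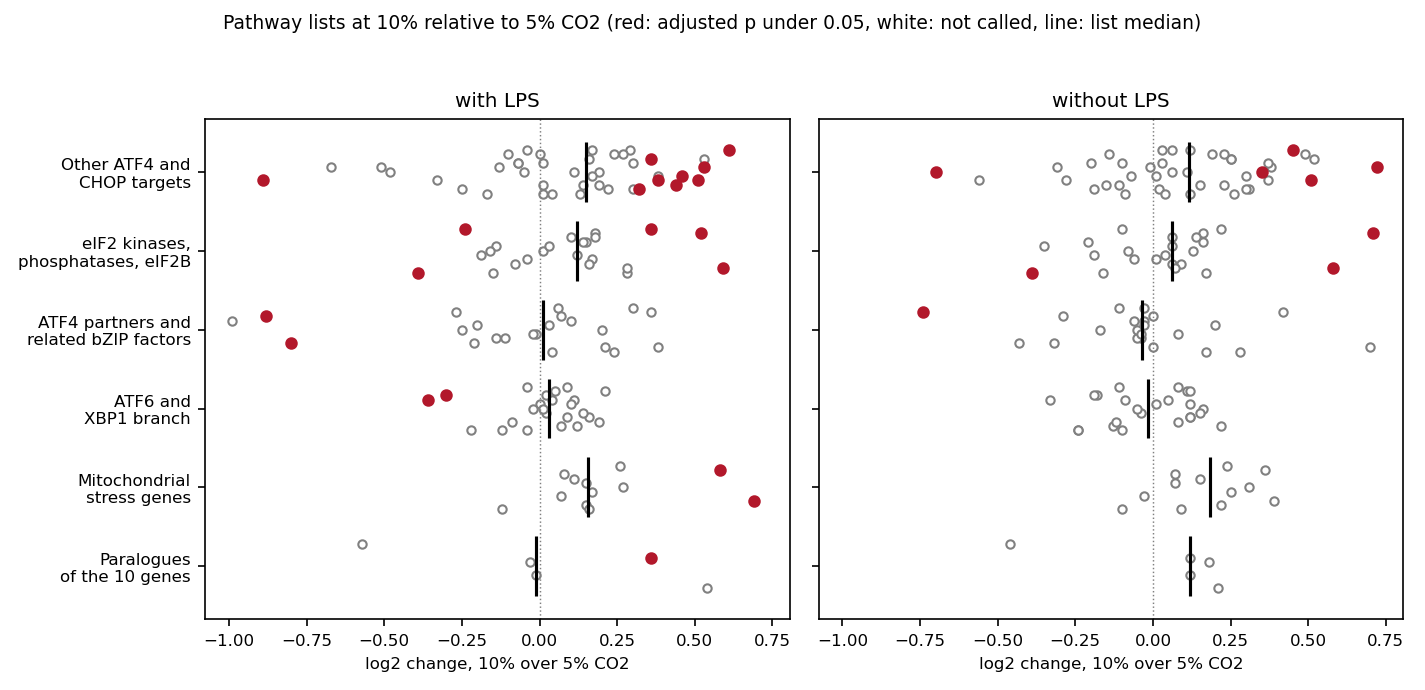
Log2 change at 10% over 5% CO2 of each tested gene in 6 lists, with LPS (left) and without LPS (right), red where the adjusted p was under 0.05, with the list median as a line. Among the other ATF4 and CHOP targets 8 red points lie above 0 with LPS and 4 without, against 1 below 0 in each.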

How the data were processed

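Each of the 12 libraries was deposited as a table of whole-number read counts for Ensembl genes. The submitters' processing notes name Trimmomatic 0.36, STAR 2.5.2b, Subread 1.5.2 (featureCounts) and the build GRCh38. The strand setting is not given in the sources used here, nor is the annotation release. A reference table gave symbols for 40907 of 57500 identifiers (71.1%). Coordinates and exon lengths come from the count tables, per the file headers.

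The test was the robust quasi-likelihood F test of edgeR 4.0.16 under R 4.3.3, two-sided, on 4 group means fitted to all 12 libraries after filterByExpr and TMM normalization. Benjamini-Hochberg adjustment ran over the 16402 genes left, with a threshold of 0.05. The code was tested on simulated data. Alternatives were DESeq2 1.42.0, its size factors, no count filter, mitochondrial genes left out, only the compared groups, a replicate block, each library left out, and, chosen after seeing the data, a GC correction and library totals without TMM. CPM are TMM-normalized, and TPM use the deposited exon lengths.

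The genes and lists were chosen with earlier results of these data known. All 10 genes are named, and from each pathway list up to 3 called genes with the smallest p in each pairwise comparison. Chi-square per degree of freedom between libraries of a group was 8.91 to 29.19, above sampling noise for every pair. The labels do not say whether replicates were separate cultures. The p-values then reflect only the spread among these samples, and that spread may be technical. All sample columns were mapped to a sample.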

Additional observations from a re-analysis of the deposited data

How the results depend on the processing

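Of the 14 calls of the 10 genes with LPS, 12 held under every alternative run, all but STC2 at 5% CO2 and ATF5 at 10% CO2. Of the 4 calls with CO2, 0 held under every alternative. For CO2 without LPS the count of genes called was 1, against 2 in DESeq2, 2 with no low-count filter, 2 with the replicate block, 2 with the GC correction and 2 with the GC correction and the replicate block, and 0 to 2 when each library was left out. In these 5 settings the second gene was ASNS. For CO2 with LPS the count was 3 and ranged from 0 to 3 without single libraries (0 on dropping 5% CO2 with LPS replicate 1 or 2 or 10% CO2 with LPS replicate 3, and 1 on dropping 10% CO2 with LPS replicate 2), and it was 0 by library totals only. The ranges without single libraries were 6 to 8 for LPS at 5% CO2, 7 to 8 for LPS at 10% CO2, 0 to 0 for the interaction and 2 to 4 for CO2 averaged over LPS. No called value changed sign. Over all genes the count for CO2 with LPS was 1435, against 271 on dropping 10% CO2 with LPS replicate 2 and 414 on dropping 5% CO2 with LPS replicate 1. It was 458 on dropping 5% CO2 with LPS replicate 2 and 917 on dropping 10% CO2 with LPS replicate 3. For CO2 without LPS the count over all genes was 240. It was 1 on dropping 5% CO2 replicate 1, 4 on dropping 5% CO2 replicate 2 and 0 on dropping 10% CO2 replicate 2, so almost any call was lost there. Among the other ATF4 and CHOP targets, DESeq2 called 8 rises without LPS, against 4 in edgeR. Over all genes DESeq2 called 669 without LPS, 354 of them higher, against 240 and 131 in edgeR. Calls over all genes without LPS were also 572 with no low-count filter, 848 with the GC correction and 1989 with the GC correction and the replicate block. The higher counts among the 10 genes in these settings thus came with more calls everywhere. Replicate numbers were not taken as pairs. Deviations of same-numbered libraries correlated at −0.423 to 0.725, over 0.1 in 12 of 18 pairs, and 5 of 12 libraries correlated best with their own number. Libraries numbered 1 correlated with each other at 0.274 to 0.725 in every pair of groups. The replicate block raised the calls over all genes from 240 to 699 for CO2 without LPS. For CO2 with LPS it raised them from 1435 to 2121. Whether same-numbered libraries shared a batch was not tested. With the replicate block DDIT3 with LPS at 5% CO2 passed (adjusted p = 0.0379). Raw counts of DDIT3 (295 to 862 per library), STC2 (250 to 689) and EIF2AK3 (181 to 268) had the lowest ranges of the 10. Their SE for CO2 with LPS was 0.13, 0.14 and 0.13, beside 0.13 for TRIB3 with 3330 to 7106 counts. The part of count depth in these errors was not tested.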
